A study of Mus musculus with 9 samples.

Results

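The 10 genes described here encode secreted proteins that cells add to the collagen matrix, or enzymes that crosslink it: Fn1, Tnc, Thbs1, Thbs2, Sparc, Postn, Ccn2, Lox, Loxl1 and Loxl2. They were followed in 3T3-L1 adipocytes, fat cells differentiated in culture from a clonal mouse preadipocyte line. A gene was included through every probe set that the array annotation assigns to its symbol, or to an older name of it, and to no other gene. By that rule 9 of the 10 genes were measured, with 19 of the 45037 probe sets tested. Both probe sets of Loxl2, a lysyl oxidase-like enzyme, are shared with a second gene symbol, so Loxl2 has no value here, and 1 further probe set of Thbs1 was left out for the same reason. Adipocyte cultures had received phenformin, conjugated linoleic acid (CLA) or linoleic acid (LA), against which the authors' deposited tables set the others, with 3 arrays per group and 9 arrays in all. Phenformin is a biguanide drug that inhibits mitochondrial respiration and thereby activates the energy sensor AMPK. CLA carries its double bonds in conjugated positions, unlike its isomer LA. The labels used here state neither dose nor duration, nor whether phenformin cultures also contained a fatty acid, so the treatments are not known to be matched. The labels call the arrays biological replicates without saying whether they came from separate differentiations.

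Matricellular proteins such as thrombospondins, tenascin-C, SPARC, periostin and CCN2 are secreted into the matrix, where they act mainly on cell adhesion and growth factor activity rather than as load-bearing fibres. Fibronectin is the adhesive glycoprotein on which other matrix proteins assemble, and lysyl oxidases oxidise lysines of collagen and elastin so that the fibres become crosslinked. In adipose tissue, preadipocytes make much fibrillar matrix and replace it by a basement membrane-type matrix as they fill with lipid. Excess collagen and its crosslinking mark the fibrosis of fat depots.

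The 250 bases before the start site are shown for the 4 genes that were higher than in LA under both treatments and have a window in the RefSeq promoter table (GRCm38.p6), since they allow a comparison of members that moved the same way. Where a gene had several windows, the outermost was taken. Sequences run 5′ to 3′ on the gene's strand, and capitals mark matches to the motifs searched.
Postn (chr3:54359017-54359266, forward strand): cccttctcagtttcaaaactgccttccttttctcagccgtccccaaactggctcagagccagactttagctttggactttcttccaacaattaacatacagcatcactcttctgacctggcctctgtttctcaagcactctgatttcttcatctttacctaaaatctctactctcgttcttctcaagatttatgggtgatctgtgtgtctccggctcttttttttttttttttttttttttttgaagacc
Tnc (chr4:64047016-64047265, reverse strand): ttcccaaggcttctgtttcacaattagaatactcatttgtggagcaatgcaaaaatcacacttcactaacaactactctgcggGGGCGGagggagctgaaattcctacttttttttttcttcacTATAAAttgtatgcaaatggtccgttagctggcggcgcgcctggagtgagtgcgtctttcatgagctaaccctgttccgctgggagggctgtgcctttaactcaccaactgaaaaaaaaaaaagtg
Thbs2 (chr17:14694263-14694512, reverse strand): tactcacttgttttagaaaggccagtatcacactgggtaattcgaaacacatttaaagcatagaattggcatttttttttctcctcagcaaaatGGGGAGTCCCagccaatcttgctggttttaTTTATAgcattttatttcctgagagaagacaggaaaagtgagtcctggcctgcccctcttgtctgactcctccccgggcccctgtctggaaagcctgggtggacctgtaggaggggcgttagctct
Sparc (chr11:55420081-55420330, reverse strand): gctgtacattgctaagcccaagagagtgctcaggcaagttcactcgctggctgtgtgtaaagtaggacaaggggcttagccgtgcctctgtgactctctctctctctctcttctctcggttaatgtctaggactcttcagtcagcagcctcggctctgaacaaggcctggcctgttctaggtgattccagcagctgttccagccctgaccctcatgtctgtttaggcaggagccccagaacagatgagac
Motifs were searched on both strands. The AP-1 motif was TGANTCA, the TEAD motif GGAATG, the TATA motif TATAAA and the Sp1 motif GGGCGG, and the CArG box and the NF-kB site were searched by their usual consensus. Thbs2 had an NF-kB match beginning 156 bases before the start site and a TATA match on the opposite strand at 126 bases. Tnc had a TATA match at 126 bases and an Sp1 match at 167 bases. No matches overlapped, and the windows of Postn and Sparc held none of the 6 motifs. Of all 32851 windows in that table, 7.25% held the NF-kB motif, 12.4% the TATA motif, 32.7% the Sp1 motif, 6.75% the AP-1 motif, 12.6% the TEAD motif and 1.47% the CArG box. These matches describe letters in a short window and do not show binding.

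Values are log2 expression per probe set, so a difference of 1 is a doubling, and the values of a gene are those of its probe set of highest average level unless another is named. Levels of different genes are not compared, because probe sets differ in how strongly they bind. Array medians lay between 5.02 and 5.14, and the 99th percentile was 11.62 for LA replicate 3, lower than the 12.18 to 12.45 of all remaining arrays. The 3′ minus 5′ difference of the pyruvate carboxylase control probe sets, larger where fewer molecules reach the 5′ end, was 3.95 ± 0.60 in phenformin, 4.02 ± 0.63 in CLA and 5.35 ± 0.43 in LA (SD, n = 3 each). It moved with both comparisons against LA, and every LA array had a larger value than every phenformin or CLA array. For the beta-actin controls that difference was 0.98 to 1.71 in LA, 0.49 to 0.66 in phenformin and 0.43 to 0.63 in CLA. With the pyruvate carboxylase difference as a covariate the same numbers of the 9 genes were called, 5 for phenformin and 7 for CLA. As LA shared no range of it with either treated group, that fit cannot separate RNA quality from treatment. The 2 comparisons with LA share the LA arrays, so their values stand side by side here and are not independent of each other. In bulk RNA, a change in the number of cells of a type and a change in RNA per cell cannot be told apart.

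Most matricellular genes were higher under both treatments than in LA, while Fn1 and Lox did not pass the test in any comparison. With phenformin, 5 of 9 genes rose and 0 fell (limma, adjusted p under 0.05 over all probe sets), against 13.7% of 18193 genes that rose and 5.11% that fell. With CLA, 7 of 9 rose and 0 fell, against 12.6% of genes that rose and 7.58% that fell. The median log2 fold change of the 9 was 0.84 for phenformin and 1.06 for CLA, against 0.01 and 0.05 over all genes. Between the treatments, phenformin minus CLA, 3 of 9 genes were lower in phenformin and 0 higher, against 2.35% of genes lower and 3.95% higher. Arrays of the groups did not overlap for 6 of 9 genes in phenformin against LA, where 34.9% of all genes did not overlap, and for 7 of 9 in CLA against LA, where 32.9% did not. Between phenformin and CLA, 4 of 9 did not overlap, against 27.1% of all genes. After quantile normalization of the deposited values, which makes the ranges of the arrays equal, 48.8% of called probe sets were higher in phenformin than in LA, against 69.8% as deposited. For CLA the shares were 46.6% against 61.4%, and for phenformin over CLA 52.4% against 63.1%. The counts of called members were 5, 7 and 3 in that setting too.

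**Figure D1:**
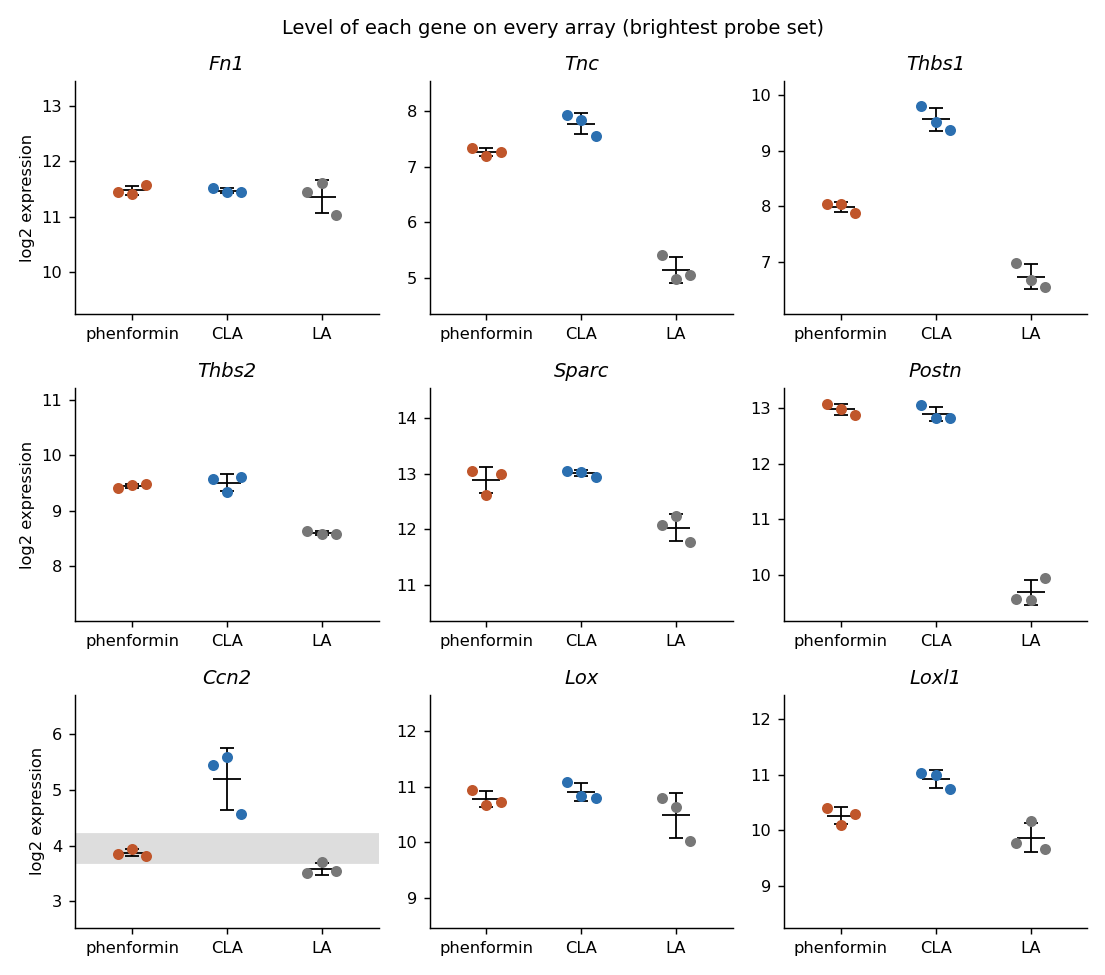
Level of each of the 9 measured genes on every array (y axis, log2 expression of the brightest probe set) in phenformin, CLA and LA (x axis). Points are arrays, and black bars are the mean and SD of 3. The grey band for Ccn2 is the range of background levels over the arrays (3.68 to 4.20). The phenformin and CLA points of Postn (12.82 to 13.07) lie far above those of LA (9.55 to 9.95), while the groups overlap for Fn1 and Lox.

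Postn, which encodes periostin, a matricellular protein that binds collagen and promotes its assembly, had the largest difference of the 9 genes in both comparisons with LA. It lay at 13.07, 12.99 and 12.88 in phenformin, 13.05, 12.82 and 12.83 in CLA and 9.56, 9.55 and 9.95 in LA. Every treated array was above every LA array, and the treated groups overlapped each other. Postn rose by 3.29 ± 0.14 (SE) with phenformin, a 9.80-fold difference (adjusted p = 1.61e-06), and by 3.21 ± 0.14 with CLA, a 9.27-fold difference (adjusted p = 4.76e-07). Ranked by log2 fold change among 18193 genes, it was 13th from the top with phenformin and 34th with CLA. The difference of phenformin from CLA was 0.08, with a 95% interval of -0.22 to 0.38 (adjusted p = 0.829).

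Tnc encodes tenascin-C, a large matrix glycoprotein that is scarce in most adult tissue and appears during injury and remodelling. It stood at 7.34, 7.20 and 7.27 in phenformin, 7.93, 7.85 and 7.56 in CLA and 5.41, 4.98 and 5.05 in LA. The 3 groups did not overlap. Tnc rose by 2.12 ± 0.15 with phenformin (4.35-fold, adjusted p = 1.57e-05) and by 2.63 ± 0.15 with CLA (6.21-fold, adjusted p = 2.40e-06). Phenformin minus CLA was -0.51 (95% interval -0.83 to -0.19), which missed the threshold at an adjusted p of 0.0828 although the arrays did not overlap. It passed without CLA replicate 3 (adjusted p = 0.0435) and with array weights (0.021).

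The thrombospondins Thbs1 and Thbs2 both rose but differed in how they did so. Thbs1 encodes thrombospondin-1, an activator of latent TGF-beta and a ligand of CD47 and CD36. It was at 8.04, 8.04 and 7.88 in phenformin, 9.80, 9.51 and 9.38 in CLA and 6.98, 6.67 and 6.55 in LA, so phenformin lay between the other groups with no overlap. Thbs1 rose by 1.25 ± 0.15 with phenformin (2.38-fold, adjusted p = 0.000339) and by 2.83 ± 0.15 with CLA (7.12-fold, adjusted p = 1.63e-06). Phenformin minus CLA was -1.58 ± 0.15 (95% interval -1.91 to -1.25), or 2.99-fold lower in phenformin (adjusted p = 0.000334), and stayed called in each alternative run. By that log2 fold change Thbs1 ranked 51st from the bottom of 18193 genes.

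Thbs2 encodes thrombospondin-2, an inhibitor of angiogenesis that also affects collagen fibril formation. Its levels were 9.41, 9.46 and 9.48 in phenformin, 9.58, 9.34 and 9.61 in CLA and 8.64, 8.59 and 8.58 in LA. The treated groups overlapped each other and both lay above LA. Thbs2 rose by 0.84 ± 0.11 with phenformin (1.79-fold, adjusted p = 0.000576) and by 0.90 ± 0.11 with CLA (1.87-fold, adjusted p = 0.000331), and phenformin minus CLA was -0.06 with a 95% interval of -0.30 to 0.18.

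Sparc encodes osteonectin, a collagen-binding protein that is known to restrain adipocyte differentiation. It was at 13.04, 12.61 and 12.99 in phenformin, 13.04, 13.03 and 12.94 in CLA and 12.07, 12.24 and 11.77 in LA. Treated arrays lay above LA arrays in both comparisons. Sparc rose by 0.85 ± 0.15 with phenformin (1.81-fold, adjusted p = 0.0037) and by 0.98 ± 0.15 with CLA (1.97-fold, adjusted p = 0.00158). Quantile normalization lowered these values to 0.49 and 0.63, both still called (adjusted p = 0.0357 and 0.0101).

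Ccn2, formerly Ctgf, encodes a connective tissue growth factor that is a known target of TGF-beta and of the YAP coactivator. It was at 3.85, 3.94 and 3.82 in phenformin, 5.45, 5.59 and 4.56 in CLA and 3.50, 3.70 and 3.54 in LA. The background level was taken for each array as the 95th percentile of 27 control probe sets for bacterial transcripts. All 3 LA arrays and 1 of 3 phenformin arrays were at or under it, and no CLA array was. On the group means, Ccn2 was at least 2.35-fold higher in CLA than in LA, taking the background level for LA. That figure leaves out the spread between arrays, and the limma test gave an adjusted p of 0.000792. The adjusted p was 0.462 for phenformin against LA. Phenformin minus CLA was -1.33 ± 0.23 (adjusted p = 0.00915), with phenformin above background on 2 of 3 arrays and close to it on all 3, so the size of that difference is uncertain. The call was lost without CLA replicate 1 (-1.20, adjusted p = 0.0518). CLA replicate 3 was the lowest of its group, and without it the difference was -1.65 (adjusted p = 0.000283).

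Fn1 encodes fibronectin, and its level did not separate the groups. It was at 11.45, 11.42 and 11.57 in phenformin, 11.52, 11.45 and 11.45 in CLA and 11.45, 11.61 and 11.03 in LA, where LA replicate 3 was the lowest array. The differences from LA were 0.12 for phenformin (95% interval -0.21 to 0.44, adjusted p = 0.673) and 0.11 for CLA (-0.21 to 0.44, adjusted p = 0.677). Phenformin minus CLA had an interval of -0.32 to 0.33 (adjusted p = 0.993). The sign of each of the 3 differences turned under at least one alternative.

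Of the collagen crosslinking enzymes, Loxl1 rose with CLA and Lox did not pass in any comparison. Lox encodes lysyl oxidase, the founding member of the family. It lay at 10.95, 10.68 and 10.72 in phenformin, 11.09, 10.83 and 10.80 in CLA and 10.80, 10.64 and 10.03 in LA. LA replicate 3 was again the lowest, and the groups overlapped. The difference from LA was 0.30 for phenformin (95% interval -0.13 to 0.72, adjusted p = 0.36) and 0.42 for CLA (-0.01 to 0.84, adjusted p = 0.182), so these arrays do not settle whether Lox changed. Phenformin minus CLA was -0.12 (-0.55 to 0.30, adjusted p = 0.809).

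Loxl1 encodes a lysyl oxidase-like enzyme needed for the renewal of elastic fibres. Its levels were 10.41, 10.10 and 10.29 in phenformin, 11.04, 11.00 and 10.75 in CLA and 9.78, 10.17 and 9.66 in LA. CLA arrays lay above all others, while phenformin and LA overlapped. Loxl1 rose by 1.06 ± 0.15 with CLA (2.09-fold, adjusted p = 0.00102), and phenformin against LA had 0.40 ± 0.15 (adjusted p = 0.116), called without LA replicate 2 (0.55, adjusted p = 0.0376). Phenformin minus CLA was -0.67 ± 0.15, or 1.59-fold lower in phenformin (adjusted p = 0.0372). That call rests closely on the arrays used: it was lost without CLA replicate 1 or 2, any of the 3 phenformin replicates or LA replicate 1 (-0.58 to -0.74, adjusted p = 0.0546 to 0.156). It was also lost with the replicate number as a block (adjusted p = 0.0564) and with an intensity trend and robust estimation (0.0569).

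**Figure D2:**
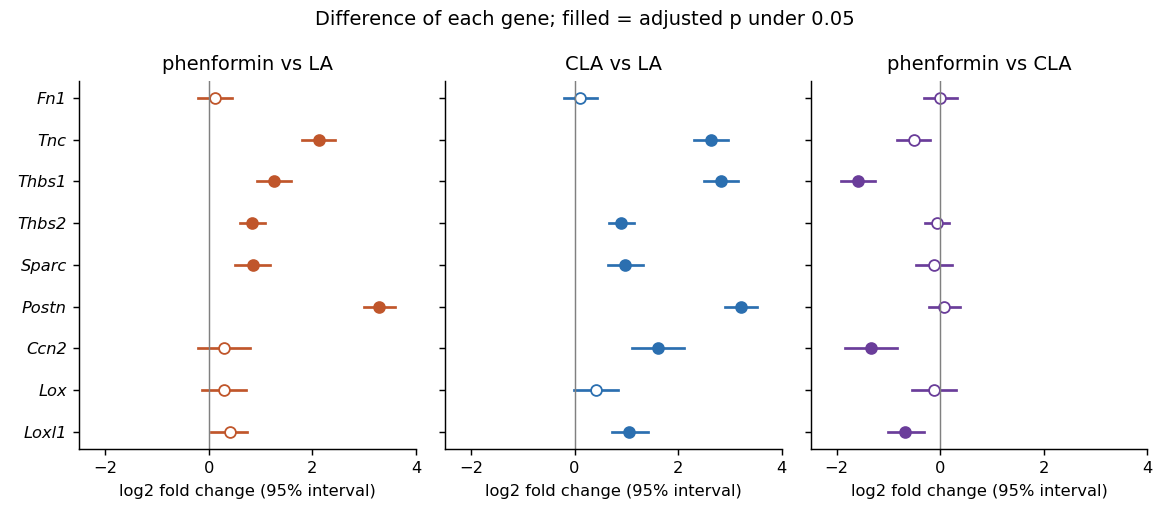
Log2 fold change of the 9 genes (rows) for phenformin vs LA, CLA vs LA and phenformin vs CLA, with 95% intervals from limma; filled points passed an adjusted p of 0.05. Postn, Thbs2 and Sparc lie near 0 between the treatments, while Thbs1 (-1.58), Ccn2 (-1.33) and Loxl1 (-0.67) were lower in phenformin than in CLA.

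Between the treatments the genes thus took different courses. For Postn, Thbs2 and Sparc the 95% intervals of phenformin minus CLA lay within -0.46 to 0.38, which bounds the difference and does not show that the treatments act alike. Thbs1, Ccn2 and Loxl1 were lower in phenformin than in CLA. All 3 of these genes also rose with CLA over LA, and of them Thbs1 rose with phenformin over LA as well.

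Further probe sets agreed for some genes and not for others. The second probe set of Thbs1 rose by 0.97 ± 0.22 with phenformin and by 2.42 ± 0.22 with CLA, and was lower in phenformin than in CLA by -1.45 ± 0.22 (adjusted p = 0.0141, 6.07e-05 and 0.00553). Another probe set of Thbs2 rose by 1.38 ± 0.18 with phenformin and by 1.32 ± 0.18 with CLA. The last probe set of Thbs2, whose suffix marks probes that may also bind other transcripts, had 0.49 and 0.37 and was not called. The second probe set of Sparc rose by 0.72 ± 0.19 with phenformin and by 0.76 ± 0.19 with CLA, while a dimmer one at 6.26 on average had -0.20 and -0.41 (adjusted p = 0.504 and 0.13). The dimmer probe set of Tnc was at or under background on all 9 arrays. Averaging all probe sets of a gene therefore lowered the log2 fold changes of Tnc to 1.21 with phenformin and 1.56 with CLA, and those of Sparc to 0.46 and 0.44, all still called.

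For Fn1 and Loxl1 the probe sets gave different answers. The dimmer probe set of Fn1 was at 6.47, 6.56 and 7.24 in phenformin, 5.86, 5.38 and 6.23 in CLA and 6.13, 5.77 and 5.96 in LA. There phenformin lay above both other groups, with a rise of 0.80 ± 0.24 over LA (adjusted p = 0.0473) and 0.94 ± 0.24 over CLA, which was not called (adjusted p = 0.06). The dimmer probe set of Loxl1 was at 5.65, 5.62 and 5.93 in phenformin, 6.35, 6.44 and 6.47 in CLA and 6.38, 6.37 and 6.38 in LA. It was lower in phenformin than in LA by -0.64 ± 0.11 (adjusted p = 0.0035), opposite in sign to the brighter probe set, and did not differ detectably between CLA and LA (0.04, 95% interval -0.21 to 0.29). Phenformin minus CLA was -0.68 ± 0.11 there (adjusted p = 0.00836), close to the -0.67 of the brighter probe set, and the mean of both gave 0.55 for CLA over LA (adjusted p = 0.00352) and -0.12 for phenformin over LA. Which transcripts each probe set detects was not tested. Neither dimmer probe set of Lox was called in any comparison. Over all 19 probe sets, 9 rose and 1 fell with phenformin and 10 rose and 0 fell with CLA, against 11.5% and 4.96% of 45037 probe sets with phenformin and 10.1% and 6.37% with CLA. Between phenformin and CLA, 0 were higher and 5 lower in phenformin, against 2.87% and 1.68% of probe sets.

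**Figure D3:**
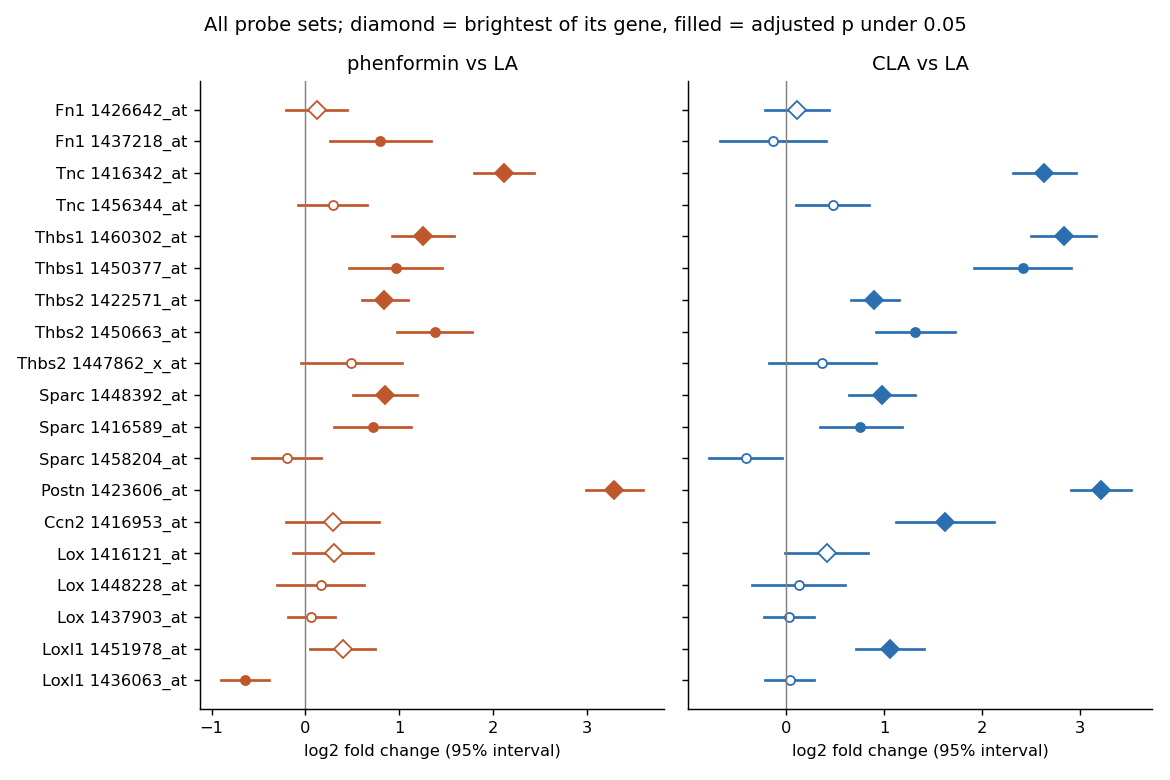
Log2 fold change of all 19 probe sets of the 9 genes (rows) for phenformin vs LA and CLA vs LA, with 95% intervals. Diamonds mark the brightest probe set of each gene, and filled symbols passed an adjusted p of 0.05. The probe sets of Loxl1 lie on opposite sides of 0 with phenformin (0.40 and -0.64), whereas the 2 of Thbs1 lie on the same side in both comparisons.

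Relatives of the members moved in a mixed way. Of 23 measured matricellular relatives, 7 rose and 1 fell with phenformin (median 0.07), and 6 rose and 2 fell with CLA (median 0.19), against 13.7% and 12.6% of all genes that rose. With the RNA quality covariate, 3 rose and 1 fell with phenformin and 4 rose and 1 fell with CLA, and after quantile normalization 4 rose and 2 fell with phenformin. Over all probe sets, that covariate lowered the number called higher from 5168 to 2793 with phenformin and from 4559 to 3327 with CLA. Ccn1, the close relative of Ccn2, rose by 1.29 ± 0.30 with phenformin and by 2.78 ± 0.30 with CLA (adjusted p = 0.0151 and 0.00017). It was lower in phenformin than in CLA by -1.49 ± 0.30 (adjusted p = 0.021). The Ccn1 probe set bears the suffix that marks probes which may also bind other transcripts. Sparcl1, a relative of Sparc with anti-adhesive activity, ran the opposite way to Sparc: it fell with -1.65 ± 0.22 under phenformin and -2.74 ± 0.22 under CLA (adjusted p = 0.000651 and 2.36e-05). Its levels were 8.67 ± 0.26 in phenformin, 7.58 ± 0.48 in CLA and 10.32 ± 0.06 in LA (SD, n = 3 each), and phenformin was above CLA by 1.09 ± 0.22 (adjusted p = 0.0198). Ccn5, another CCN protein, rose by 0.81 ± 0.13 with phenformin and 1.10 ± 0.13 with CLA. The elastic fibre protein Fbln5 rose by 0.88 ± 0.11 and 0.71 ± 0.11, and Fbln2, a fibulin of the same family, rose by 0.88 ± 0.18 with phenformin and 0.99 ± 0.18 with CLA.

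Among 19 measured enzymes and chaperones that modify, process or crosslink collagen, 7 rose with phenformin and 9 with CLA, and 0 fell in either (medians 0.61 and 0.64), where 13.7% and 12.6% of all genes rose. With the RNA quality covariate, 3 rose with phenformin and 5 with CLA, with medians of 0.41 and 0.48. Fewer of all probe sets were called higher in that setting too. None of the 19 passed between phenformin and CLA by limma at an adjusted p under 0.05. In that comparison 3.95% of all genes were higher in phenformin and 2.35% lower, so none of 19 is near the general share. Serpinh1, the collagen chaperone HSP47, rose by 1.31 ± 0.20 with phenformin and 1.68 ± 0.20 with CLA (adjusted p = 0.00159 and 0.000326). The prolyl 4-hydroxylase subunits P4ha1 and P4ha2, which stabilise the collagen triple helix, rose by 0.91 ± 0.11 and 0.76 ± 0.12 with phenformin and by 1.30 ± 0.11 and 1.04 ± 0.12 with CLA. P3h1, a prolyl 3-hydroxylase, rose by 0.61 ± 0.15 with phenformin and 0.64 ± 0.15 with CLA. Pcolce2, an enhancer of procollagen processing, rose by 0.95 ± 0.21 with phenformin and had 0.58 ± 0.21 with CLA (adjusted p = 0.0123 and 0.0993).

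Among 20 measured receptors for these matrix proteins, 9 rose with phenformin and 8 with CLA, and 0 fell (medians 0.50 and 0.40), where 13.7% and 12.6% of all genes rose. With the RNA quality covariate, where fewer of all probe sets were called higher, 6 rose with phenformin and 6 with CLA. Itga5, the alpha subunit of the fibronectin receptor, rose by 2.29 ± 0.23 with phenformin and 3.47 ± 0.23 with CLA (adjusted p = 0.000138 and 7.62e-06), while the brightest probe set of Fn1 itself did not pass. Itga5 was lower in phenformin than in CLA by -1.18 ± 0.23 (adjusted p = 0.0177). Cd47, a receptor for thrombospondin-1, rose by 1.86 ± 0.15 with phenformin and 1.89 ± 0.15 with CLA. The collagen receptor Ddr2 rose by 0.95 ± 0.12 and 1.20 ± 0.12, and the integrin subunit Itgav by 0.78 ± 0.16 and 1.32 ± 0.16. The proteoglycan Sdc2 rose by 0.81 ± 0.13 with phenformin and had 0.26 ± 0.13 with CLA (adjusted p = 0.00195 and 0.229). Between phenformin and CLA, Sdc2 was higher by 0.55 ± 0.13 and Sdc4 lower with -0.92 ± 0.21 in phenformin (adjusted p = 0.0394 and 0.0336). After quantile normalization the medians of the enzymes and of the receptors stayed above 0 in both comparisons with LA (0.28 to 0.50).

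**Figure D4:**
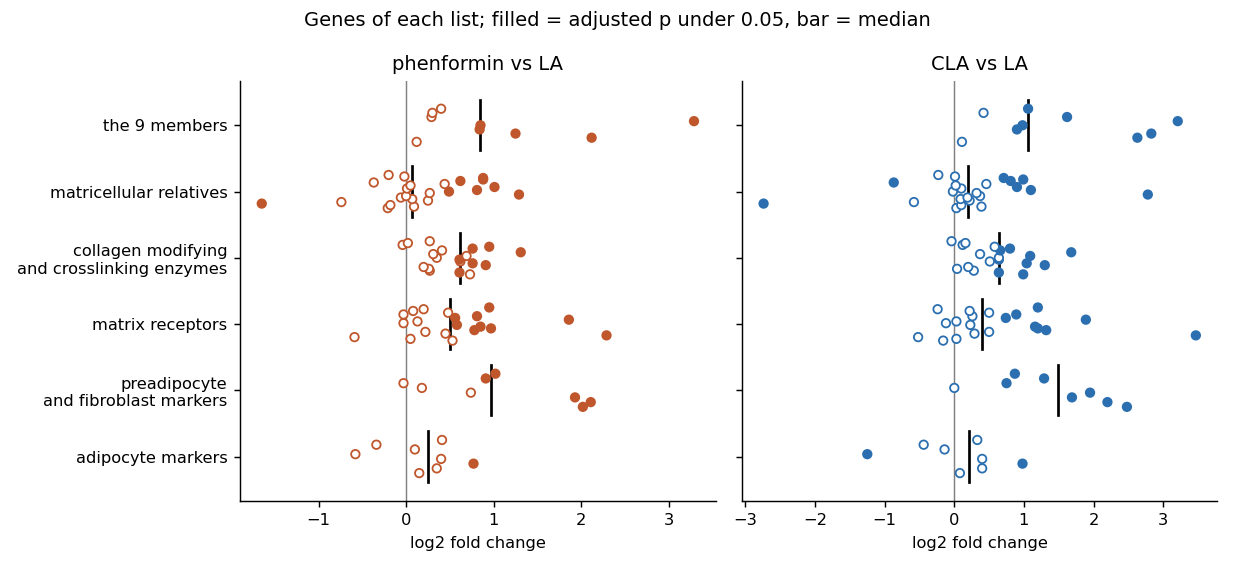
Log2 fold change of each gene (points) for phenformin vs LA and CLA vs LA in the 9 members, 3 related gene lists and 2 marker lists (rows). Filled points passed an adjusted p of 0.05, and black bars are medians. The medians of the members (0.84 and 1.06) and of the preadipocyte and fibroblast markers (0.96 and 1.49) lie to the right of 0.

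The labelled cell type was checked on marker genes. For scale, 13.7% of all genes rose and 5.11% fell with phenformin, and 12.6% rose and 7.58% fell with CLA. Of 8 measured adipocyte markers, 1 rose and 0 fell with phenformin and 1 rose and 1 fell with CLA, with medians of 0.25 and 0.20 that turned to -0.15 and -0.17 after quantile normalization, where 0 rose and 2 fell with phenformin and 1 rose and 3 fell with CLA. Adipoq, the adiponectin gene, was at 14.14 ± 0.06 in phenformin, 14.07 ± 0.07 in CLA and 14.00 ± 0.43 in LA (SD, n = 3 each), far above background in each group. Those levels lie close to the highest values on the arrays (13.6 to 14.7), so a difference there could be missed. Pparg, the nuclear receptor of adipocyte differentiation, fell with -1.25 ± 0.19 under CLA (adjusted p = 0.00122) and had -0.58 ± 0.19 under phenformin (adjusted p = 0.0619). Of 8 measured preadipocyte and fibroblast markers, 5 rose with phenformin and 7 with CLA, and 0 fell. With the RNA quality covariate, where fewer of all probe sets were called higher, 3 rose with phenformin and 5 with CLA. Their summed level on the log2 scale was 14.39 to 14.59 in phenformin, 14.46 to 14.69 in CLA and 13.25 to 13.40 in LA. Dlk1, a preadipocyte surface protein that blocks differentiation, had 2.02 ± 0.35 with phenformin and 2.48 ± 0.35 with CLA, and Pdgfra, a receptor of mesenchymal precursors, 2.11 ± 0.29 and 2.20 ± 0.29. Cd34 was at or under background on all 9 arrays. With phenformin, Thy1 had 0.74 ± 0.27 and Gata2 -0.03 ± 0.21, neither called by limma (adjusted p = 0.0901 and 0.947). With CLA both rose, by 1.95 ± 0.27 and 0.75 ± 0.21. The markers that rose moved with the members that rose, and their part in those rises was not tested. Of 10 macrophage markers, 0 rose and 2 fell with phenformin and 1 rose with CLA, and their summed level was 8.78 to 8.89 in phenformin, 9.40 to 9.83 in CLA and 9.05 to 9.31 in LA. The brightest of them was Cd14, a receptor for bacterial lipopolysaccharide, at 7.47 in phenformin, 8.91 in CLA and 8.19 in LA on average, and the other 9 averaged at most 6.53 in any group. The leukocyte markers Ptprc and Itgam were at or under background on every array. Adgre1, 1 of the 2 that fell with phenformin, had -0.40 (limma, adjusted p = 0.0498). All 3 phenformin arrays and 2 of 3 LA arrays were at or under background for Adgre1, so that fall is uncertain. Of 8 endothelial and mural markers 0 were called and 3 were at background on all arrays, and of 6 muscle markers 1 rose in both comparisons with LA.

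For each member the most similar gene outside the group was taken as the one with the smallest root mean square difference over the 9 arrays, after centring each gene on its own mean. For Tnc it was Csf1, a growth factor of macrophages, with a difference of 0.174 log2 units. For Thbs1 it was Spry2, a feedback inhibitor of growth factor signalling, with 0.209, and for Ccn2 it was Pxdc1, with 0.184. For Postn it was the adhesion molecule Nectin3, with 0.212. The remaining members had closer genes: Brd7 for Fn1 (0.049), Zc3h7a for Lox (0.08), Snhg1 for Thbs2 (0.098), Pafah1b1 for Sparc (0.101) and Ifrd2 for Loxl1 (0.109). Nectin3 averaged 6.64 in phenformin, 6.74 in CLA and 3.70 in LA. Its LA average was below the background level of each LA array (3.80, 3.90 and 4.20), so the size of its difference from LA is uncertain. Csf1 averaged 9.20 in phenformin, 9.74 in CLA and 7.15 in LA, and Spry2 7.78, 9.01 and 6.37 in the same groups. Among the members, Thbs2 and Sparc were 0.186 apart, as were Fn1 and Lox, while the member nearest to Postn was Tnc at 0.516. Nearness of this kind is a description of 9 arrays in 3 groups.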

How the data were processed

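RNA of 9 cultures was hybridized to Affymetrix mouse arrays after Trizol extraction and biotin labelling, per the labels' protocols. Per the submitters' processing notes, RMA and R 2.9.0 were used for the deposited log2 values. The deposited limma tables hold log2 fold changes, p-values and a score (moderated t and log odds), per the file headers. The genome build and limma version are not given in the sources used here.

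Of 45101 probe sets, 64 controls were left out, and symbols came from the array annotation (34945 probe sets with 1 symbol, 932 with several, 9160 with none). The brightest probe set stood for each of 18193 genes. Contrasts were taken from 1 limma fit (limma 3.58.1, R 4.3.3) over 3 groups. Its two-sided p-values were adjusted by Benjamini and Hochberg's method across all 45037 probe sets and called under 0.05. With 3 arrays a side, an exact permutation p could not fall below 0.1. The fit gave the same log2 fold changes as the authors' deposited tables, with differences of at most 5.4e-08. The fit was tested on simulated data with known changes placed in the CLA arrays. Members and lists were chosen with earlier results of these data known, and genes of the related lists were named as the up to 4 with the smallest adjusted p per comparison. Listed genes without a measured symbol are not analysed here. Tables were read with Python 3.11.15 and pandas 2.3.3 and drawn with matplotlib 3.10.9. The number of arrays limits the precision, and p-values measure only the spread between these samples, which may be technical. The alternatives are given at the end.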

Additional observations from a re-analysis of the deposited data

How the results depend on the processing

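Over 27 differences (9 genes in 3 comparisons), the 19 alternatives gave 513 values. Of these, 486 kept direction and side of the threshold, 9 lost a call, 3 gained one and 15 turned sign. The authors' deposited table is among the alternatives and repeats the main fit. The replicate block, the trend and robust fit, the fit of 2 groups only and the fit without dim probe sets left the log2 fold changes unchanged. So did leaving out an array outside the comparison. Direction could not turn in those settings. All 12 calls against LA were kept in the alternatives run, and the changes lie in differences that were small or between the treatments. For Fn1, array weights gave -0.02 for phenformin vs LA and -0.03 for phenformin vs CLA. Quantile normalization gave -0.24 for phenformin vs LA, -0.19 for CLA vs LA and -0.05 for phenformin vs CLA. The mean of its probe sets gave -0.01 for CLA vs LA and 0.46 for phenformin vs LA (limma, adjusted p = 0.0553). The highest Fn1 value over the alternatives was 0.47 for phenformin vs CLA. Leaving out 1 array gave -0.05 to 0.24, -0.05 to 0.23 and -0.04 to 0.04 in phenformin vs LA, CLA vs LA and phenformin vs CLA. The mean of probe sets turned Loxl1 to -0.12 in phenformin vs LA, and Thbs2 to 0.04 and Sparc to 0.01 in phenformin vs CLA, where leaving out 1 array gave -0.20 to 0.01 for Sparc. Members called lower in phenformin than in CLA numbered 1 to 4 without 1 array, the lowest without CLA replicate 1.

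Counts over all probe sets moved more. In phenformin vs LA, the RNA quality covariate gave 2793 higher and 853 lower against 5168 and 2233, array weights 4393 lower and quantile normalization 4003 lower, and leaving out 1 array 3711 to 5253 higher and 1243 to 2881 lower. In CLA vs LA the lower count was 2867, with 1573, 4965 and 4486 under those settings and 1641 to 3602 without 1 array. In phenformin vs CLA, 1292 higher and 756 lower became 2906 and 1635 with array weights, and 428 to 1943 and 392 to 1142 without 1 array. The cause was not tested. The replicate numbers were not taken as a pairing, since not every same-numbered pair of arrays had deviations from the group means that correlated above 0.1. The 6 pairs with LA had -0.285 to -0.05, and the 3 pairs of phenformin and CLA had 0.29, 0.092 and 0.582, though CLA replicate 2 correlated most with phenformin replicate 1 (0.386). The pyruvate carboxylase differences of replicates 1, 2 and 3 were 4.50, 4.03 and 3.30 in phenformin and 4.55, 4.20 and 3.33 in CLA, and whether these numbers mark a shared origin was not tested. With the replicate block, 5170 higher and 2129 lower were called in phenformin vs LA, and 5, 7 and 2 members in the 3 comparisons.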
